A study of Mus musculus musculus x Mus musculus castaneus with 7 samples.

Results

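The nuclear lamina and LINC complex genes were 10 genes of the nuclear envelope, taken from the 24393 genes of the deposited table by their symbols: Lmna, Lmnb1, Lmnb2, Lbr, Emd, Sun1, Sun2, Syne1, Syne2 and Tmpo. All 10 were found, and all 10 had reads in each of the 7 libraries. The libraries came from a study of female mouse embryonic fibroblasts (MEFs) of a musculus × castaneus cross during reprogramming to pluripotency, with 1 library per group. The fibroblasts carried lentiviral reprogramming factors (Pou5f1, Sox2, Klf4 and Myc) under a doxycycline-controlled promoter, with the M2rtTA activator on a separate virus. They were sorted before induction for cells uniform in which X chromosome, with or without its GFP reporter, was inactive.

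The Day 2 library was labelled as a reprogramming intermediate, and its label names no SSEA1 sort. The Day 8, Day 10, Day 13 and Day 15 libraries were intermediates positive for SSEA1, a surface sugar antigen gained on the way to pluripotency. All 5 of these groups had 2 µg/ml doxycycline and 50 µg/ml ascorbic acid in serum medium with LIF. The induced pluripotent stem cells (iPSCs) were grown from picked colonies after both agents had been withdrawn, and were sorted for SSEA1 and GFP. The embryonic stem cells (ESCs), described in the labels as F121, were sorted in the same way. In bulk RNA, fewer cells of a type and less RNA per cell cannot be told apart, and no library had a replicate. Differences are therefore described against counting error only, with no test between groups.

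The lamina is a mesh of intermediate filament proteins under the inner nuclear membrane. B-type lamins are present in nearly all cell types, whereas A-type lamins accumulate as cells differentiate and stiffen the nucleus. Heterochromatin is held at the nuclear edge by lamin A/C and by the lamin B receptor, and mouse ESCs are known for little lamin A/C. LINC complexes (linkers of nucleoskeleton and cytoskeleton) join SUN proteins of the inner membrane, which bind the lamina, to nesprins of the outer membrane, which bind actin, microtubule motors and plectin. Gene counts add up the splice forms of each gene, so lamin A and lamin C, the LAP2 forms, and giant and short nesprins were not separated.

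The libraries held 15370903 (iPSC) to 57021069 (Day 15) reads in genes. The 12 fibroblast markers summed to 1318050 normalized counts on Day 2, while 9 of 10 pluripotency markers, Pou5f1 and Sox2 among them, had no read there. Whether the reprogramming factors were active in the Day 2 cells cannot be told from these data, so Day 2 stands here for a fibroblast library with that label. All 10 pluripotency markers had reads in each of the other 6 libraries. Mitochondrial genes took 20.9% of reads in ESCs, against 1.72% to 5.61% in the other libraries. Among genes at or above 8 on the log2 scale in all other libraries, 116 (1.66%) had no read at Day 2 and 153 (2.17%) had none at Day 8, against 0 to 2 genes in each of the other libraries. At Day 2 these genes included Pou5f1, Sox2, Cdh1 and Epcam, so genes that may be off in fibroblasts were counted with genes missed by the library. Such genes were not separated in either library. A low value in those 2 libraries may therefore be less certain than its counting interval says.

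The A-type lamin gene Lmna (chromosome 3, positions 88480147 to 88509956 of GRCm38, minus strand) had 67305 normalized counts on Day 2, 19462 on Day 8, 10309 on Day 10, 4769 on Day 13, 3455 on Day 15, 813 for iPSCs and 1615 for ESCs. Each library of the course was lower than the one before it, and all 7 libraries were apart from their nearest neighbour in level beyond counting error. The iPSC value rested on 347 reads, against 73617 reads on Day 2, and was 82.8-fold lower (95% counting interval 74.5 to 92.3). Among all genes compared between these 2 libraries, 5.64% had a lower difference than Lmna. ESCs were 1.99-fold higher than iPSCs for Lmna (1.77 to 2.24), and 41.7-fold lower than Day 2. On the log2 scale, Day 13 and Day 15 lay past the midpoint between Day 2 and iPSCs, at 59.9% and 67.3% of that distance, while Day 8 and Day 10 lay at 28.1% and 42.5%.

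The B-type lamin gene Lmnb1 (chromosome 18, 56707813 to 56753424, plus strand) had the opposite order over the course. It had 3831 normalized counts on Day 2, 5367 on Day 8, 8808 on Day 10, 10542 on Day 13, 11367 on Day 15, 15402 for iPSCs and 10539 for ESCs. The iPSC library was the highest, 4.02-fold above Day 2 (3.87 to 4.18), and the ESC and Day 13 libraries did not differ beyond counting error. Each step from Day 2 to iPSCs was under 2-fold. The other B-type lamin gene, Lmnb2 (chromosome 10, 80901203 to 80918245, minus strand), had 1629 normalized counts on Day 2, 5192 on Day 8, 1983 on Day 10, 3252 on Day 13, 2279 on Day 15, 2137 for iPSCs and 3441 for ESCs. Its values had no single direction: Day 8 and Day 13 stood above the libraries next to them, and the iPSC value did not differ beyond counting error from Day 15, the next above it, or from Day 10, the next below it. Day 8 was 3.19-fold above Day 2 for Lmnb2 (3.02 to 3.36).

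**Figure D1:**
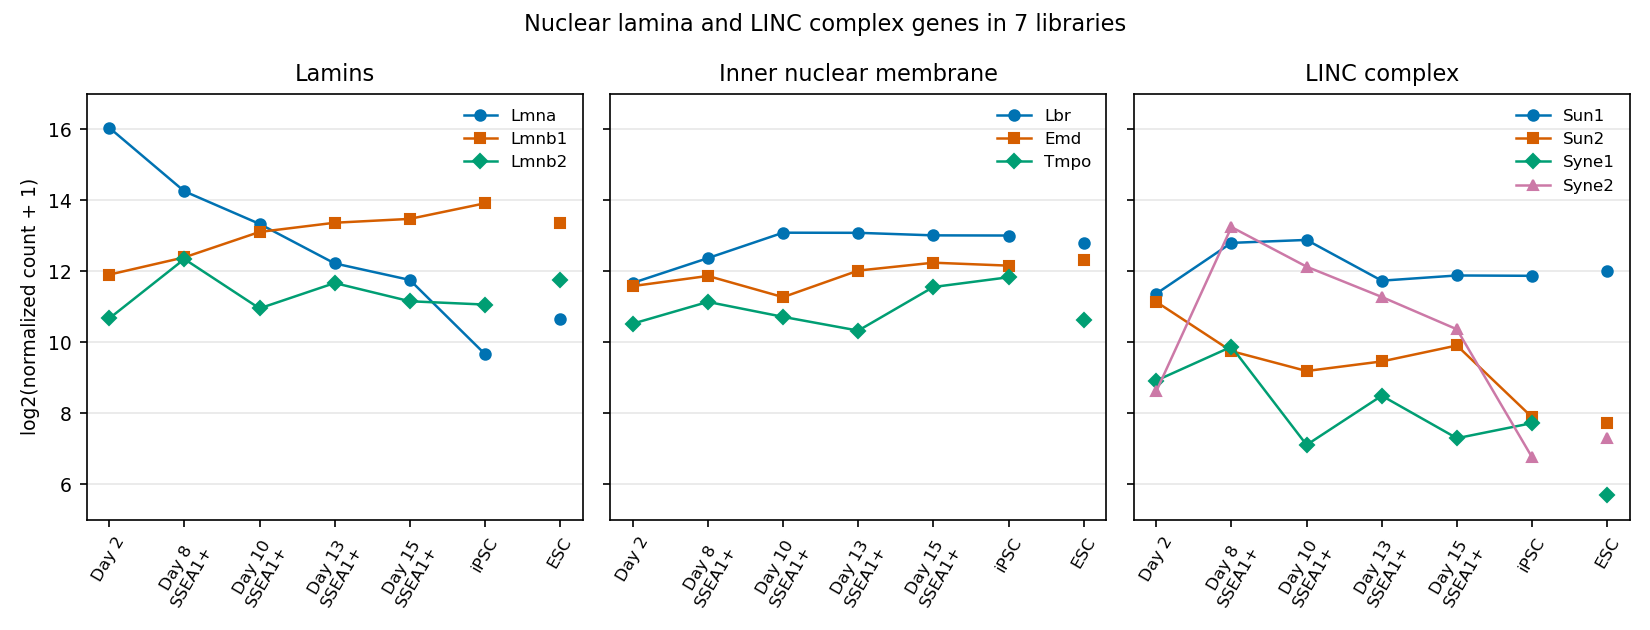
Levels of the 10 genes in log2(normalized count + 1), 1 point per library, with a line through the reprogramming course and the ESC library as a lone point. Up to iPSCs, Lmna is lower at each later point while Lmnb1 is higher, Lbr is level from Day 10, and Syne2 is highest at Day 8. ESCs are above iPSCs for Lmna and below them for Lmnb1.

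Lbr (chromosome 1, 181815335 to 181843046, minus strand) encodes the lamin B receptor, an inner membrane protein that tethers heterochromatin and also carries a sterol reductase. It had 3260 normalized counts on Day 2, 5287 on Day 8, 8681 on Day 10, 8661 on Day 13, 8241 on Day 15, 8214 for iPSCs and 7157 for ESCs. The Day 8 library already lay past the midpoint between Day 2 and iPSCs, at 52.3% of the log2 distance, and each step from Day 10 to iPSCs was at most 1.05-fold. The iPSC value was 2.52-fold above Day 2 (2.40 to 2.64).

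Emd (chromosome X, 74254687 to 74261548, plus strand) encodes emerin, a LEM-domain protein that binds lamins and the chromatin factor BAF. It had 3065 normalized counts on Day 2, 3734 on Day 8, 2470 on Day 10, 4146 on Day 13, 4835 on Day 15, 4566 for iPSCs and 5087 for ESCs. Its range was the smallest of the 10 genes, 2.06-fold, with Day 10 lowest and ESCs highest. Emd is X-linked, and the study followed the loss of random X inactivation, so its difference was set beside that of its chromosome. For iPSCs minus Day 2, the difference in log2(normalized count + 1) was 0.58 for Emd, with a median of 1.13 over 562 X-linked genes and −0.015 over 13220 autosomal genes. In iPSCs 52.8% of the X-linked genes stood 2-fold or more above Day 2, and Emd, at 1.49-fold (1.41 to 1.58), was not among them. By upper-quartile scaling Emd reached a log2 difference of 1.05, but that scaling also moved the median of all genes by 0.51. The X-linked median and share are given on the deposited scale only.

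Tmpo (chromosome 10, 91147571 to 91181315, minus strand) encodes LAP2, a family of LEM-domain proteins of which some are anchored in the inner membrane and another is a nucleoplasmic partner of lamin A. It had 1472 normalized counts on Day 2, 2251 on Day 8, 1681 on Day 10, 1285 on Day 13, 3009 on Day 15, 3641 for iPSCs and 1575 for ESCs. The Day 15 and iPSC libraries stood above all others. Day 15 was 2.34-fold above Day 13 (2.20 to 2.49), iPSCs were 2.47-fold above Day 2 (2.31 to 2.65), and ESCs were 2.31-fold below iPSCs (2.15 to 2.48). The ESC value did not differ from those of Day 10 and Day 2 beyond counting error.

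The pair of SUN genes did not move alike. Sun1 (chromosome 5, 139200637 to 139249840, plus strand) had 2644 normalized counts on Day 2, 7118 on Day 8, 7539 on Day 10, 3405 on Day 13, 3769 on Day 15, 3744 for iPSCs and 4108 for ESCs. Day 8 and Day 10 stood above the rest, Day 8 by 2.69-fold over Day 2 (2.58 to 2.81), and Day 13 was 2.21-fold below Day 10 (2.13 to 2.30). Sun2 (chromosome 15, 79724070 to 79742536, minus strand) had 2253 normalized counts on Day 2, 861 on Day 8, 584 on Day 10, 704 on Day 13, 961 on Day 15, 237 for iPSCs and 212 for ESCs. Day 2 was the highest and the iPSC and ESC values, which rested on 101 and 196 reads, were the lowest and did not differ beyond counting error. The iPSC library was 9.52-fold below Day 2 (7.80 to 11.7) and 4.06-fold below Day 15 (3.32 to 5.02) for Sun2.

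Among the sorted intermediates, Sun2 was lowest at Day 10 and highest at Day 15. The summed fibroblast markers had the same order of these 4 libraries except that Day 8 came above Day 15: 76967 normalized counts on Day 8, 6710 on Day 10, 25279 on Day 13 and 69927 on Day 15, then 1724 for iPSCs and 5245 for ESCs. At least 10 of the 12 fibroblast markers had a read in each of these intermediates, and Twist2 had none at Days 10, 13 and 15. Their part in the Sun2 values was not tested. Lmna did not follow that order: at Day 15 it was lower than at Day 10, 3455 against 10309 normalized counts, where the fibroblast sum was higher. The part of these markers in the Lmna values was not tested either.

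Syne1 (chromosome 10, 5020917 to 5551482, minus strand) encodes nesprin-1, whose giant form binds actin. It had 485 normalized counts on Day 2, 938 on Day 8, 137 on Day 10, 360 on Day 13, 157 on Day 15, 211 for iPSCs and 50.8 for ESCs. Day 8 was the highest and ESCs, with 47 reads, the lowest, and high and low values alternated over the intermediates. Day 10 was 6.82-fold below Day 8 (5.82 to 8.04), Day 13 was 2.62-fold above Day 10 (2.19 to 3.15) and Day 15 was 2.30-fold below Day 13 (1.96 to 2.70). ESCs were 4.15-fold below iPSCs (2.89 to 6.04). Markers of blood cells and macrophages alternated in the same libraries: the 12 genes summed to 133 normalized counts on Day 2, 41410 on Day 8, 1262 on Day 10, 15428 on Day 13, 3668 on Day 15, 5845 for iPSCs and 3578 for ESCs. All 12 had a read at Days 8, 13 and 15, in iPSCs and in ESCs, 9 of 12 had none at Day 2, and Spi1, Mpeg1 and Ctss had none at Day 10. At Day 2, where this sum was lowest, Syne1 was higher than at Day 13, with 485 against 360 normalized counts. Lmnb2 was also higher at Day 8 and Day 13 than at Day 10 and Day 15. In ESCs, where the sum was lower than at Day 13, Lmnb2 was higher, with 3441 against 3252 normalized counts. The part of these markers in the Syne1 and Lmnb2 values was not tested.

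Syne2 (chromosome 12, 75818134 to 76110926, plus strand) encodes nesprin-2, the other giant nesprin. It had 393 normalized counts on Day 2, 9685 on Day 8, 4475 on Day 10, 2479 on Day 13, 1318 on Day 15, 108 for iPSCs and 158 for ESCs. All 4 sorted intermediates stood above Day 2, iPSCs and ESCs, with a peak at Day 8, so that its 89.9-fold range was the widest of the 10 genes. Day 8 was 24.6-fold above Day 2 (22.4 to 27.2), which 9.65% of all genes compared exceeded. The iPSC library, with 46 reads, was 12.2-fold below Day 15 (9.14 to 16.8) and 3.65-fold below Day 2 (2.69 to 5.06).

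The markers of epithelial cells (Cdh1, Epcam, Cldn4, Krt8 and Krt18) summed to 114 normalized counts on Day 2, 134861 on Day 8, 120343 on Day 10, 88111 on Day 13, 69077 on Day 15, 12173 for iPSCs and 24480 for ESCs. The sum was high in the 4 intermediates, as Syne2 was, but its highest value at Day 8 came from Krt8, at 16.4 on the log2 scale there and 15.8 at Day 10. Cdh1, Epcam and Cldn4 were highest at Day 10 and Krt18 at Day 15, and the median log2 difference of the 5 markers at Day 10 against Day 8 was 0.34, where Syne2 was 2.16-fold lower. Cdh1, Epcam and Cldn4 had no read at Day 2 and all 5 had reads elsewhere. The 5 epidermal markers in the table were also highest in the intermediates, with summed values of 17.4 on Day 2, 7106 on Day 8, 11523 on Day 10, 10172 on Day 13, 3690 on Day 15, 159 for iPSCs and 603 for ESCs. Trp63, which defines basal epidermis, had no read at Days 2, 8, 10 and 13 or in ESCs. The part of either list in the Syne2 values was not tested.

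**Figure D2:**
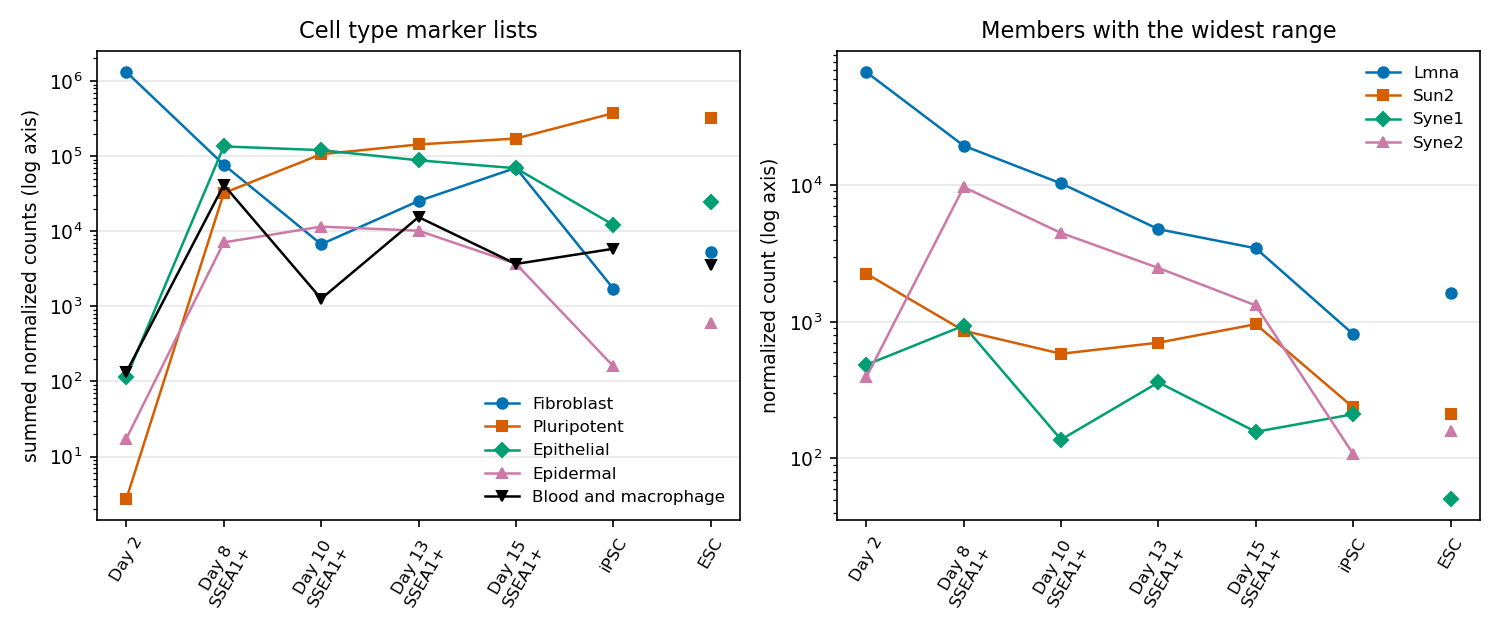
Left, summed normalized counts of 5 cell type marker lists in each library. Right, normalized counts of the 4 genes with the widest range, both on log axes with the ESC library as a lone point. Syne2 peaks at Day 8, as does the epithelial sum through Krt8 while the other 4 epithelial markers peak later. Among the intermediates, Syne1 and the blood and macrophage sum are both high at Day 8 and Day 13. Syne1 is higher at Day 2 than at Day 13, while that sum is lowest at Day 2. Lmna is lower at each later point up to iPSCs, and ESCs are above iPSCs.

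Ratios within a library do not depend on how libraries were scaled. Per kilobase of exon, Lmna over Lmnb1 was 8.91 on Day 2, 1.84 on Day 8, 0.594 on Day 10, 0.230 on Day 13, 0.154 on Day 15, 0.0268 for iPSCs and 0.0778 for ESCs. The A-type transcript thus had more reads per kilobase than Lmnb1 at Days 2 and 8 and fewer in all later libraries. Lmna over Lbr, the other tether of peripheral heterochromatin, was 16.8 on Day 2, 3.002 on Day 8, 0.968 on Day 10, 0.449 on Day 13, 0.342 on Day 15, 0.0807 for iPSCs and 0.184 for ESCs. On this scale the ratio passed 1 between Day 8 and Day 10, with a counting interval of 0.944 to 0.993 at Day 10. In reads not divided by length, the Day 10 ratio was 1.19 for Lmna over Lbr and 1.17 for Lmna over Lmnb1. The lengths took in all annotated exons of a gene, so the library where a ratio passed 1 depends on them. Within the B-type pair, Lmnb2 over Lmnb1 stayed below 1 in all 7 libraries, between 0.0959 in iPSCs and 0.669 at Day 8.

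Sun2 over Sun1 per kilobase was 1.19 on Day 2, 0.170 on Day 8, 0.109 on Day 10, 0.290 on Day 13, 0.357 on Day 15, 0.0886 for iPSCs and 0.0722 for ESCs. Day 2 was the only library with more Sun2 than Sun1 on this scale. In reads not divided by length, the Day 2 ratio was 0.852, so its side of 1 depends on the exon lengths. Syne1 over Syne2 was 0.814 on Day 2, 0.0639 on Day 8, 0.0203 on Day 10, 0.0960 on Day 13, 0.0785 on Day 15, 1.29 for iPSCs and 0.212 for ESCs. The iPSC ratio had an interval of 0.896 to 1.88, which holds 1, while the ratio per kilobase was below 1 beyond counting error in the other 6 libraries. For Syne1 over Syne2 too, the Day 2 ratio changed sides in reads not divided by length, where it was 1.23.

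**Figure D3:**
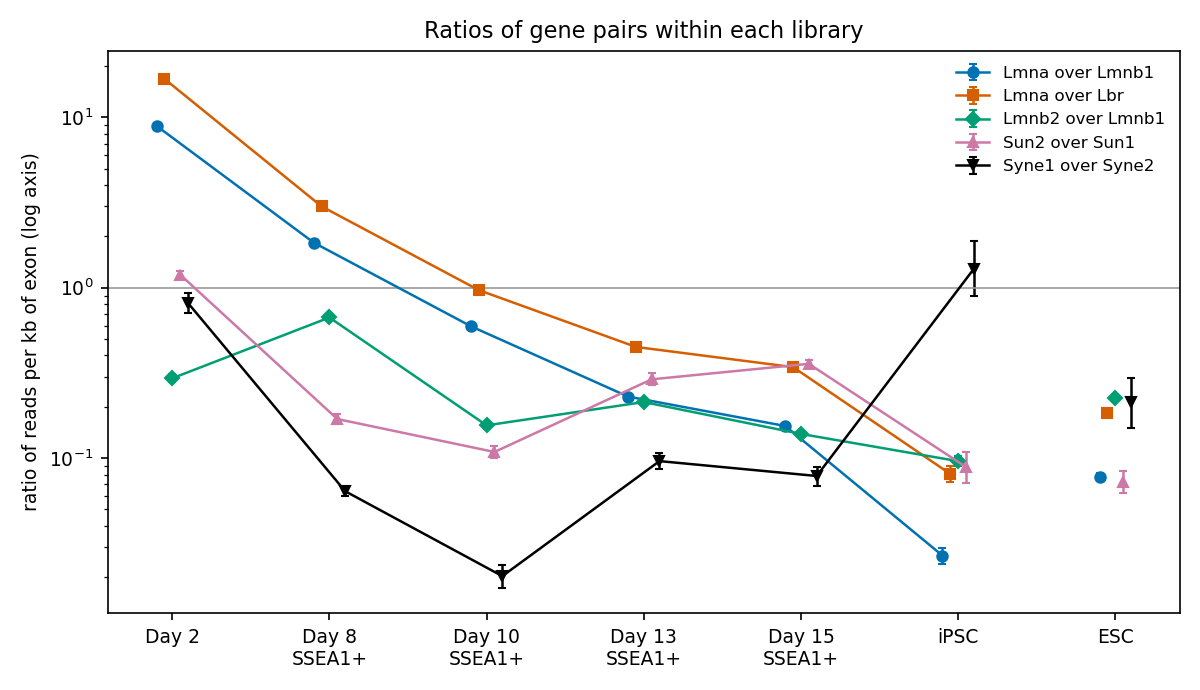
Ratio of reads per kilobase of exon for 5 gene pairs in each library on a log axis, with 95% counting intervals and the ESC library as a lone point. Lmna over Lmnb1 is 8.91 on Day 2 and 0.0268 in iPSCs, and Sun2 over Sun1 per kilobase is above 1 only at Day 2.

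Levels per kilobase of exon, in normalized counts, gave the order of the genes within a library. At Day 2 Lmna stood first with 11529 per kilobase, followed by Lmnb1 with 1293 and Emd with 1218. In iPSCs Lmnb1 stood first with 5200 per kilobase, followed by Emd with 1814 and Lbr with 1725, and Lmna came 7th of 10 with 139. The order of the first 3 genes in ESCs was again Lmnb1, Emd and Lbr, with 3558, 2021 and 1503 per kilobase. Syne1 was last in 6 of the 7 libraries, at 1.25 to 23.2 per kilobase over all 7. Its exons span 40.5 kilobases and those of Syne2 26.7, so a level per kilobase counts short forms of these genes low.

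For all comparisons, genes were taken where the higher library reached 6 on the log2 scale (64 normalized counts), and a difference of at least 2-fold was counted as higher or lower. All 10 genes entered each comparison. At Day 8 against Day 2, 3 of the 10 genes were higher (Syne2, Lmnb2 and Sun1) and 2 lower (Lmna by 3.46-fold and Sun2 by 2.62-fold), where 26.3% of all 13475 genes compared were higher and 31.8% lower. At Day 10 against Day 8, none was higher and 3 were lower (Syne1, Lmnb2 by 2.62-fold and Syne2 by 2.16-fold), with 27.7% and 18.8% of all genes higher and lower. At Day 8 the shares of the 10 genes were near those of all genes, so the envelope genes did not stand out as a group in that step. These counts moved with the scaling. By total reads, 6 genes were higher and 1 lower at Day 8 than at Day 2, where the median of all genes moved by 0.46 on the log2 scale and 59.7% of all genes were past 2-fold either way. By the upper quartile, 2 were higher and 1 lower at Day 10 than at Day 8, where the median moved by 0.67 and 52.1% were past 2-fold.

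At Day 13 against Day 10, 1 gene was higher (Syne1) and 2 were lower (Lmna by 2.16-fold and Sun1, neither of them past 2-fold by upper-quartile scaling), with 15.7% and 9.51% of all genes higher and lower. At Day 15 against Day 13, Tmpo was higher and Syne1 lower, beside 14.6% and 13.1% of all genes. In iPSCs against Day 15, none was higher and 3 were lower (Syne2, Lmna by 4.25-fold and Sun2), with 7.83% and 22.1% of all genes higher and lower. The other 7 genes lay within 1.36-fold in that step. In ESCs against iPSCs, none was higher and 2 were lower (Syne1 and Tmpo), with 14.5% and 13.7% of all genes higher and lower. Lmna passed 2-fold upward in that comparison, at a log2 difference of 1.11, when mitochondrial reads were left out of the scaling.

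Over the whole course, iPSCs against Day 2, 3 genes were higher (Lmnb1, Lbr and Tmpo) and 4 lower (Lmna, Sun2, Syne2 and Syne1), where 28.7% of 13981 genes were higher and 29.8% lower. Lmnb2, Emd and Sun1 lay within 2-fold, at 1.31, 1.49 and 1.42-fold above Day 2. The median difference in log2(normalized count + 1) was 0.45 over the 10 genes and 0.018 over all genes compared. ESCs against the same Day 2 library also had 3 genes higher and 4 lower, with 29.1% and 29.8% of all genes, and Lmnb2 (2.11-fold) in place of Tmpo (1.07-fold) among those higher. These 2 comparisons share the Day 2 library. With Day 10 in its place, 1 gene (Tmpo) was past 2-fold upward in iPSCs and 4 downward (Lmna, Syne2, Sun2 and Sun1), where 41.8% of all genes were past 2-fold either way. The log2 difference was then −1.01 for Sun1, −0.080 for Lbr and 0.61 for Syne1, each of the opposite sign to that against Day 2. For Syne1, iPSCs against Day 2 passed 2-fold (2.30-fold lower, 1.84 to 2.91) only on the deposited scale: the log2 difference was −0.87, −0.85 and −0.73 when libraries were scaled by total reads, by total reads without mitochondrial genes, or by the upper quartile.

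**Figure D4:**
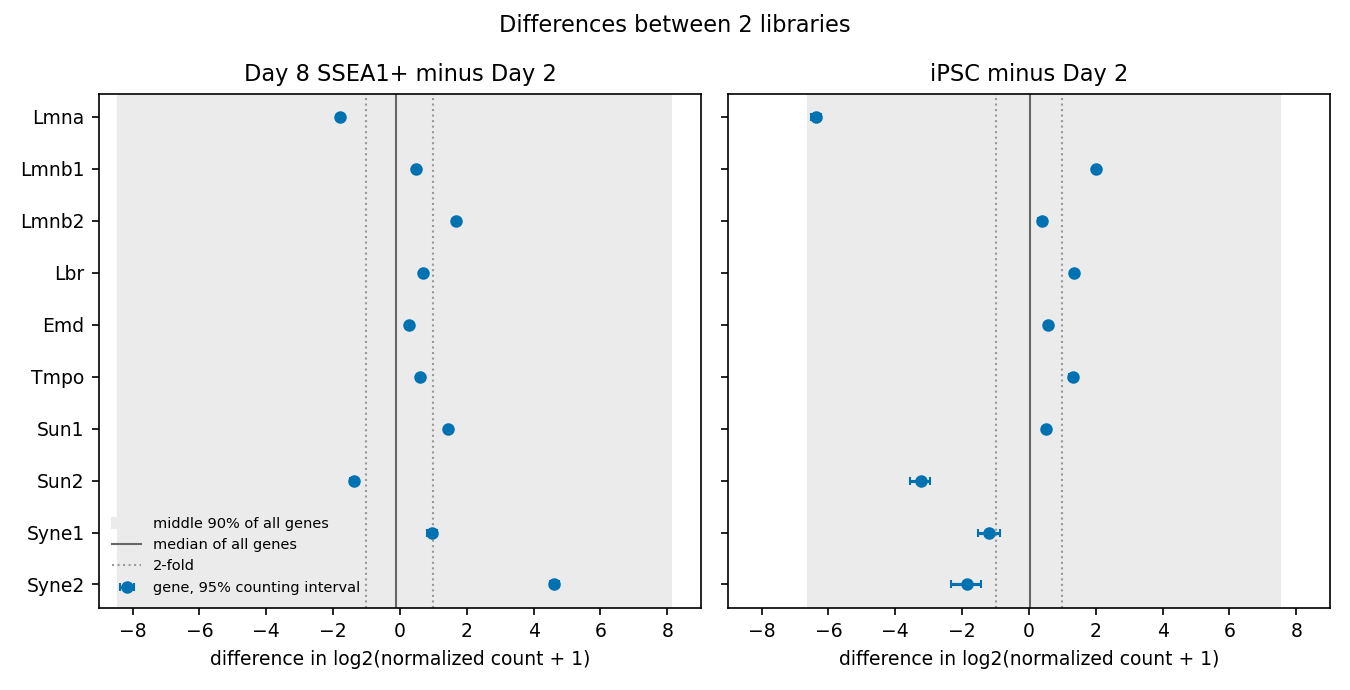
Difference in log2(normalized count + 1) of each gene for Day 8 minus Day 2 and for iPSC minus Day 2, with 95% counting intervals, the median and middle 90% of all genes compared, and dotted lines at 2-fold. All 10 genes lie inside the middle 90%, with Syne2 the farthest up at Day 8 and Lmna the farthest down in iPSCs.

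The range over the 7 libraries reached 4-fold for 5 of the 10 genes (Lmna, Lmnb1, Sun2, Syne1 and Syne2), against 66.7% of the 16711 genes with a highest value of at least 6. Among the 9157 genes whose lowest value was at least 5, as it was for all 10 envelope genes, 39.7% reached 4-fold. The median range was 1.84 on the log2 scale for the envelope genes and 1.72 for those 9157 genes. Lmnb1 was close to that cut, with a range of 2.01 on the log2 scale. Without the Day 2 and Day 8 libraries its range was 0.81, while Lmna, Sun2, Syne1 and Syne2 still reached 4-fold. Lmnb2 also reached 4-fold when scaled by total reads with (2.09) or without (2.14) mitochondrial genes, and Lbr by the upper quartile (2.05). The share of all genes that reached 4-fold was not computed for these alternatives.

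Other genes of the envelope were read from lists of related genes, again at 2-fold. The shares of all genes stand beside each list count from here on. For iPSCs against Day 2, 28.7% were higher and 29.8% lower. For Day 8 against Day 2, 26.3% were higher and 31.8% lower. Of 15 further inner membrane and lamina-binding genes compared for iPSCs against Day 2, 2 were higher and 6 lower, with a median log2 difference of −0.39. The lowest was Tmem43, which encodes LUMA, a partner of emerin, at 6.91-fold lower. Next came Tor1b, an ATPase of the nuclear envelope lumen, at 4.05-fold lower, Tmem38a at 3.07-fold lower and Tor1aip1, which encodes the torsin activator LAP1, at 2.58-fold lower. Lemd3, which encodes the LEM-domain protein MAN1, was 3.55-fold higher and the chromatin kinase gene Vrk1 2.41-fold higher. At Day 8 against Day 2, 4 of 16 were higher and 4 lower. Lemd1 had the largest difference upward, with 0 reads on Day 2 and 253 on Day 8, and had 479 on Day 10, 22 in iPSCs and 0 in ESCs. Lemd3 was 8.47-fold higher at Day 8 than at Day 2 (6.08 to 12.1) on 370 against 39 reads, and Tor1b 4.28-fold lower.

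Lamin A is made from a precursor that is farnesylated, cut by the protease of Zmpste24 and methylated by the enzyme of Icmt. Zmpste24 had 528 reads in iPSCs, against 5801 reads on Day 2, and was 4.29-fold lower (3.92 to 4.70). Icmt was 4.30-fold lower (3.78 to 4.91). Both were already lower at Day 8, by 3.46-fold and 3.45-fold, where Lmna was 3.46-fold lower. The 3 genes parted after Day 8. From Day 8 to iPSCs, log2 values went from 10.6 to 10.3 for Zmpste24, 9.53 to 9.21 for Icmt and 14.2 to 9.67 for Lmna. Icmt was 1.64-fold higher at Day 10 than at Day 8. Of the 6 processing genes compared in iPSCs, Fntb, the farnesyltransferase subunit, was 2.29-fold higher and Narf, a prelamin A-binding factor, was 9.26-fold higher. Narf had 31 reads on Day 2, 0 on Day 8 and 795 on Day 10, and at least 112 in each of the later libraries.

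Of the other LINC genes, 5 of the 9 symbols were in the table. Syne3, which encodes nesprin-3, the plectin-binding nesprin, was 5.31-fold lower in iPSCs than at Day 2 (3.41 to 8.72), on 21 against 286 reads. Syne4, the nesprin-4 gene of epithelial cells, had 0 reads on Day 2 and Day 8, 166 on Day 10, 286 on Day 13, 410 on Day 15, 167 for iPSCs and 729 for ESCs. Lrmp, a KASH-domain gene of lymphoid cells and taste cells, had 0 reads on Day 2, 3661 on Day 8, 2046 on Day 10, 1228 on Day 13, 614 on Day 15, 166 for iPSCs and 300 for ESCs. Like Syne2, Lrmp had its highest value at Day 8. Against a floor of 3 reads on Day 2, iPSCs were at least 143-fold higher for Syne4 and at least 142-fold higher for Lrmp. Ccdc155, the KASH5 gene of meiosis, was 7.76-fold higher in iPSCs.

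Among 12 cytoskeletal partners of LINC complexes, 1 was higher and 4 were lower in iPSCs than at Day 2. Of all genes, 28.7% were higher and 29.8% lower in that comparison, and 26.3% and 31.8% at Day 8 against Day 2. Vim, the intermediate filament of fibroblasts, was 88.8-fold lower (83.1 to 95.1) and Plec, which joins nesprin-3 to such filaments, 14.6-fold lower. The dynein adaptor gene Bicd2 was 13.1-fold lower and the kinesin light chain gene Klc1 5.16-fold lower, while the formin gene Fhod3 was at least 99.1-fold higher, with no read at Day 2. At Day 8 against Day 2, 3 were higher and 3 lower, with Vim 19.2-fold lower. Of 11 genes of mechanical signalling and YAP targets, none was higher and 9 were lower in both of these comparisons. In iPSCs against Day 2, Ctgf was 133-fold lower, Ankrd1 115-fold, Cyr61 45.9-fold and Amotl2 12.5-fold.

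Of 31 nuclear pore genes, 11 were higher and 1 lower in iPSCs than at Day 2, with a median log2 difference of 0.87. The shares of all genes were 28.7% higher and 29.8% lower there, and 26.3% and 31.8% at Day 8 against Day 2. Nup210, the pore membrane protein gene, had 1231 reads in iPSCs and 0 on Day 2, at least 1052-fold higher, and had 1534 to 4912 reads in the other libraries. Nup43 was 4.37-fold higher and Nup133 3.34-fold higher, both of the Y-complex scaffold of the pore, as was Ahctf1 at 2.70-fold, whose product ELYS seeds pores on chromatin. Sec13, shared between the pore and vesicle coats, was 2.79-fold lower. At Day 8 against Day 2, 3 of 30 were higher and 2 lower, Nup210 being highest there too. Of 9 sterol genes of the pathway in which the LBR reductase acts, 3 were higher and 3 lower in iPSCs and none passed 2-fold at Day 8. Ebp was 3.29-fold higher and Sc5d 2.53-fold lower in iPSCs than at Day 2.

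Lmnb1 and Tmpo are also among genes whose transcripts go up in dividing cells, so proliferation genes were read beside them. Of 18 such genes, 10 were higher and none lower in iPSCs than at Day 2, with a median log2 difference of 1.05. Beside them, 28.7% of all genes were higher and 29.8% lower, and 26.3% and 31.8% at Day 8 against Day 2. Mcm3 was 6.78-fold and Mcm6 5.30-fold higher, both subunits of the replicative helicase. At Day 8 against Day 2, 4 were higher and none lower. At Day 15 against Day 13 and in ESCs against iPSCs, all 18 lay within 2-fold, with median log2 differences of 0.069 and −0.14. Tmpo was 2.34-fold higher and 2.31-fold lower there. Of all genes, 14.6% and 14.5% were higher and 13.1% and 13.7% lower. In ESCs against Day 2, 9 of the 18 were higher and none lower, beside 29.1% and 29.8% of all genes. Tmpo was at 1.07-fold and Lmnb1 at 2.75-fold in that comparison. The part of the proliferation genes in the Lmnb1 and Tmpo values was not tested.

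For the genes with a range of at least 4-fold, the 3 most alike genes over the 7 log2 values were taken by Pearson's r from 7302 genes (7303 for Syne1) with a mean of at least 8 and a range of at least 2-fold. With 7 points and a shared scaling, these values are descriptions. Lmna was most like Ccnd2 (r = 0.996), which encodes cyclin D2, Mcfd2 (0.994) and 9530068E07Rik (0.994). Lmnb1 was most like 0610009B22Rik (0.995), Ung (0.990), which encodes uracil DNA glycosylase, and Ulk1 (0.986), an autophagy kinase. Sun2 was most like Bmp1 (0.992), a procollagen protease, Dclk1 (0.991) and Sorbs3 (0.990), an adhesion adaptor. Syne1 was most like Ankrd12 (0.980), Grk2 (0.957) and Adam8 (0.954), and Syne2 was most like Pde1b (0.992), Sdcbp2 (0.984) and Rps6kb2 (0.978). An r of at least 0.9 was reached by 364 genes for Lmna and 333 for Lmnb1, against 26 for Syne1.

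Since the library kit does not mark strand, exons that overlap a neighbour on either strand could have drawn counts from both genes. Lbr shares 440 bases of exon (9.24% of its exons) with Dnah14 on the opposite strand, which had 0 to 78 reads per library. Tmpo shares 244 bases with Gm26765, which had 0 to 74 reads. Emd shares 343 bases (13.6% of its exons) with the same-strand pseudogene Gm14686, Sun1 302 bases with the antisense gene 4930520M14Rik and Sun2 147 bases with the antisense gene Gm16575. Reads of those 3 neighbours were not analysed here.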

How the data were processed

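The submitters' processing notes name FastQC, STAR 2.5.3a, featureCounts and the mm10 (GRCm38.p5) genome. Per the labels' protocols, 500 pg of RNA went into cDNA synthesis and libraries were built with Nextera XT. The deposited values are on the log2 scale, as log2 of 1 plus the reads over a size factor. Undoing this gave whole reads for 100% of values (tolerance 0.01 reads), and the factors equalled median-of-ratios factors over 11395 genes. From these values, differences of log2 values, folds of normalized counts, and 95% Clopper-Pearson intervals of read ratios were computed, which cover counting error only. A fold against 0 reads used a floor of 3 reads in that library. No test between groups was run and no p-value is given, since each group has 1 library. Positions and exon lengths came from GENCODE M21 (GRCm38), which matched 23485 symbols and left 908 unmatched. Genes outside the 10 were named as the most alike 3, or up to 4 per direction in each list. The members and lists were chosen with earlier results of these data known. Alternatives were 3 other scalings, a pseudocount of 5, a filter at 8 or none, and exchanged libraries. Scripts used Python 3.11.15, pandas 2.3.3, NumPy 2.4.6, SciPy 1.17.1 and matplotlib 3.10.9, and were tested on simulated data.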

Additional observations from a re-analysis of the deposited data

How the results depend on the processing

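No paired analysis was possible because each group has 1 library, and for the same reason no replicate could be left out. Counts of envelope genes past 2-fold stayed within 1.5 times in 82 of 94 alternatives. These 82 include outcomes fixed in advance, since all 10 genes passed the filter and leaving it out could change no count. A pseudocount of 5 changed no count either. At Day 8 against Day 2, 6 genes were higher and 1 lower when scaled by total reads, with or without mitochondrial genes. These scalings moved the median of all genes by 0.46 and 0.52 on the log2 scale, with 59.7% and 60.3% of all genes past 2-fold either way. At Day 10 against Day 8, upper-quartile scaling gave 2 higher and 1 lower (median moved by 0.67, 52.1% of all genes past 2-fold). Day 2 in place of Day 8 gave 4 higher and 3 lower, beside 52.2% of all genes past 2-fold. Lmnb2 was then at 0.28 and Syne2 at 3.51, both of the opposite sign. Upper-quartile scaling left 1 higher and 0 lower at Day 13 against Day 10, beside 26.9% of all genes past 2-fold. In ESCs against iPSCs, 1 gene, Lmna, was higher without mitochondrial reads (1.11) and by upper quartile (1.01), and a filter at 8 left 1 lower. Of all genes, 29.1%, 28.9% and 17.2% were past 2-fold in these alternatives, in that order. Day 10 in place of Day 2, added after seeing the data, left 1 gene higher and 4 lower in iPSCs, beside 41.8% of all genes past 2-fold. Lbr was then at −0.080, Syne1 at 0.61 and Sun1 at −1.01, all of the opposite sign. For iPSCs against Day 2 the scalings moved the median by 0.36 to 0.51 and Emd reached 1.05 by upper quartile. With ESCs as the end point, Sun2 had 1 intermediate past its midpoint. Of 470 single differences 21 changed sign, 7 of them under another scaling. Of the 21, 4 were past 2-fold on the deposited scale, namely Lmnb2, Syne2, Lbr and Syne1 as given above. All 35 ratio values within libraries, as log2 differences, stayed inside their counting intervals under the pseudocount alternative. The ratios per kilobase given above use reads without a pseudocount, so this alternative does not bear on them. The cause of these shifts was not tested. Values below about 50 reads, such as Syne2 in iPSCs and Syne1 in ESCs, are limited by depth.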
